A study of Homo sapiens with 6 samples.

Results

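Entry of pyruvate into the citric acid cycle is set by the pyruvate dehydrogenase (PDH) complex, and the 10 genes described here encode its 4 kinases (PDK1, PDK2, PDK3 and PDK4), its 2 phosphatases (PDP1 and PDP2) and 4 of its subunits (PDHA1, PDHB, DLAT and PDHX). They were taken by gene name from a table of 27009 genes, and all 10 were in it. The set was chosen by the difference of PDK4 between the groups in these same libraries, so the PDK4 values are a description and were given no test, and the other 9 genes were added for their role in the PDH switch. RNA sequencing was performed on Hep3B, a human hepatocellular carcinoma line, in stable cells whose endogenous PD-L1 (CD274) gene had been knocked out in both groups. The vector group (n = 3 libraries) carried the empty pCDH-CMV-Puro lentiviral vector. The other group (n = 3) carried nPD-L1, a PD-L1 with the residues LCL mutated to ACA, in the same vector, in which a CMV promoter drives the transgene. The study calls the sequenced samples of a group independent, but neither it nor the labels state whether they came from separate cultures, so p values measure only the spread between these libraries, which may be technical. The table held scaled reads, that is, read counts per gene after division by a scaling factor of the library.

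The PDH complex converts pyruvate to acetyl-CoA inside mitochondria. PDH kinases phosphorylate its E1 alpha subunit and switch the complex off, and PDH phosphatases remove the phosphate and switch it on again. PDK4 is the kinase best known for induction by fasting, fatty acids and glucocorticoids in liver, muscle and heart, where it spares glucose while fat is burned, whereas PDK1 is a classical target of hypoxia-inducible factor (HIF). In bulk RNA, fewer transcripts per cell and fewer cells that express a gene cannot be told apart, and transcript levels do not measure phosphorylation of the complex.

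The libraries held 17427519 to 22253295 reads on genes, and the lowest read number behind any value of the 10 genes was 94. CD274 had 28.3, 38.4 and 47.8 scaled reads in vector replicates 1, 2 and 3, against 16.8, 19.2 and 30.9 in the nPD-L1-labelled libraries. It was therefore not higher in the group said to carry the transgene (log2 fold change −0.76, SE 0.34, adjusted p = 0.338, limma), and every direction given below rests on the labels. Of 8 hepatocyte and hepatoma markers in the table, ALB, APOA1, APOB, TTR and TF reached at most 2.89 scaled reads in any library. SERPINA1 had 7.91 to 41.4, HNF4A 6.24 to 51.6 and FGB 962 to 1540. AFP, the other of the 9 listed markers, was not in the table. The summed hepatocyte markers ranged from 982 to 1562 scaled reads in vector and from 1064 to 1177 in the other group, nearly all of it FGB, so most defining markers of the labelled cell type were at or near 0. Leukocyte markers in the table summed to at most 2.52 and endothelial markers to at most 6.06 in any library. The 4 fibroblast markers in the table summed to 165 to 245 in vector and 590 to 652 in the nPD-L1-labelled libraries, with COL1A1 at a mean of 65.3 and 466, LUM at 131 and 137, and DCN at 0 in 3 of 6 libraries. The part of this shift in the results below was not tested.

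The upstream part of the PDK4 promoter is shown because PDK4 carries the main difference. The RefSeq window on GRCh38.p14 runs from 250 bases before to 50 bases after the annotated start, on the minus strand, and the 250 bases before the start lie at chr7:95596517-95596766. Capitals mark the motif matches listed after the sequence.

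PDK4 promoter: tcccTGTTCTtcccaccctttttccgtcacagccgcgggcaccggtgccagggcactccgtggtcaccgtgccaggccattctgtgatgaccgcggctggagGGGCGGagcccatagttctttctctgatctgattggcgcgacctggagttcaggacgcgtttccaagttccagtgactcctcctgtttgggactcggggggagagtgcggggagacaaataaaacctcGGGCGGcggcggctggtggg

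Of 10 motifs searched on both strands of the 300-base window, 2 were found. Each motif was an exact sequence, so variant sites and sites outside the window were not searched. A glucocorticoid half-site (AGAACA, on the reverse strand as TGTTCT) began 246 bases before the start, a match that 14.8% of 35116 promoter windows contain. The GC box (GGGCGG), a binding motif of SP-family factors, began 148 and 20 bases before the start, and 44.95% of all windows contain it. The 8 motifs without a match were the FOXO core (GTAAACA, in 3.42% of windows), the nuclear receptor half-site (AGGTCA, 13.8%), the E-box (CACGTG, 7.26%), the HIF core (ACGTG, 21.4%, which lies within the E-box), the cyclic AMP element (TGACGTCA, 1.85%), the AP-1 site (TGACTCA, 4.95%), the C/EBP palindrome (TTGCGCAA, 0.151%) and the TATA motif (TATAAA, 11.5%). GC content of the window was 60.7% (median of all windows, 58.7%), with 21 CpG dinucleotides (median 14). Windows of 9 of the 10 genes were used. Those on chromosome 8, where PDP1 lies, were left out of the search for the 10 genes. The GC box was present in a window of 8 of these 9 genes, and AGAACA in that of PDK4 alone. The windows of PDK1, PDK2, PDK3, PDHB, DLAT, PDHX and PDP2 each held an ACGTG in at least 1 window, which was found in neither the PDK4 nor the PDHA1 window.

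PDK4 (ENSG00000004799, chromosome 7, 95583499 to 95596491, minus strand, GRCh38) was by far the most abundant PDH kinase transcript in vector cells and was much lower in the nPD-L1-labelled libraries. It had 7769, 7937 and 7827 scaled reads in vector replicates 1, 2 and 3, and 1490, 1320 and 1500 in the nPD-L1-labelled libraries. The groups did not overlap. The mean of 7844 ± 85.5 (SD, n = 3) stood against 1437 ± 101, which is 18.3% of the vector level, or 5.46-fold lower (log2 fold change −2.45, SE 0.095, on the scale of log2(value + 1)). Per kilobase of gene length, PDK4 was above 97.0% of tested genes in vector and above 81.4% in the other group, so the transcript remained well expressed. The vector libraries held PDK4 within a coefficient of variation of 1.09%, close to the 1.16% that read counting alone gives. Only 0.876% of 10725 genes whose mean reached 100 varied less in vector, where the median gene varied by 11.8%. In the nPD-L1-labelled libraries the coefficient was 7.05% (2.54% from counting), below which lay 42.8% of genes. None of the genes given in GENCODE 29 overlapped PDK4.

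The other 3 kinases did not pass the test, and each had libraries that overlapped between the groups. PDK1, the HIF-responsive kinase (ENSG00000152256, chromosome 2, 172555373 to 172608669), had 142, 121 and 160 scaled reads in vector and 79.0, 154 and 132 in the nPD-L1-labelled libraries. The low value of nPD-L1 replicate 1 set its mean difference (log2 fold change −0.26, SE 0.25, adjusted p = 0.709), which was 0.024 without that library. PDK2, the kinase expressed in most tissues (ENSG00000005882, chromosome 17, 50094737 to 50112152), had 177, 159 and 116 against 110, 151 and 105 (−0.30, SE 0.21, adjusted p = 0.602). PDK3 (ENSG00000067992, X chromosome, 24465221 to 24541862), a kinase with more restricted expression, had 221, 288 and 199.5 against 187, 211 and 212 (−0.20, SE 0.17, adjusted p = 0.665). The 95% intervals of the log2 difference were −0.80 to 0.29 for PDK1, −0.77 to 0.17 for PDK2 and −0.57 to 0.17 for PDK3. A rise above 0.29 and a fall below −0.80 lay outside all 3 intervals.

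**Figure D1:**
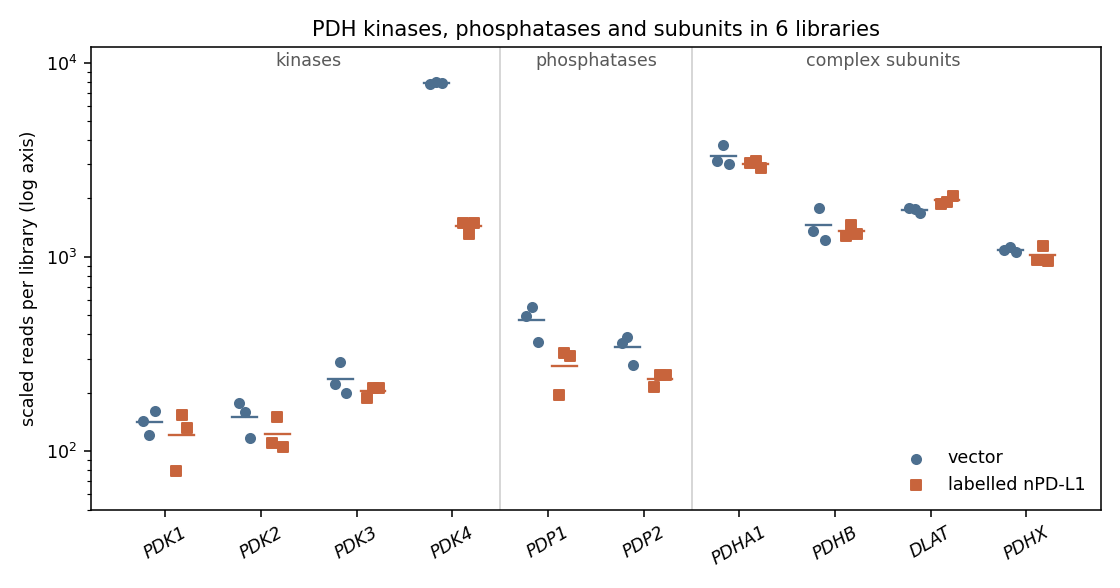
Scaled reads (log axis) of the 10 genes in each of the 6 libraries, circles for vector and squares for nPD-L1-labelled libraries, with a line at each group mean. PDK4 lies near 7844 in vector and near 1437 in the other group, PDP1 and PDP2 sit lower without overlap, DLAT sits slightly higher, and the other 6 genes overlap between groups.

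Both phosphatase transcripts were also lower in every nPD-L1-labelled library than in any vector library, but neither passed the threshold after adjustment over all genes. PDP1, the calcium-stimulated phosphatase (chromosome 8, 93857807 to 93926066), had 498, 552 and 363 scaled reads in vector and 194, 322 and 311 in the nPD-L1-labelled libraries. The means were 471 ± 97.6 and 275 ± 70.7 (SD, n = 3), or 58.5% of vector (log2 fold change −0.78, SE 0.22, 95% interval −1.26 to −0.31, adjusted p = 0.0733). The lowest vector library (363) and the highest of the other group (322) were close together, and without vector replicate 3 the difference passed (−0.96, adjusted p = 0.0159). PDP2, the insulin-responsive phosphatase (chromosome 16, 66878589 to 66895754), had 362, 387 and 277 against 213, 247 and 247. Its means were 342 ± 57.6 and 236 ± 19.3, or 68.8% of vector (−0.53, SE 0.16, 95% interval −0.87 to −0.18, adjusted p = 0.106). Without vector replicate 3, its adjusted p was 0.0229. Vector replicate 3 had the lowest phosphatase values of its group.

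The subunit transcripts did not pass the test in either direction. PDHA1, the E1 alpha subunit that the kinases phosphorylate (X chromosome, 19343893 to 19361705), had 3125, 3754 and 3026 scaled reads in vector and 3055, 3137 and 2857 in the nPD-L1-labelled libraries (log2 fold change −0.12, SE 0.11, adjusted p = 0.674). PDHB, the E1 beta subunit (chromosome 3, 58427630 to 58433857), had 1358, 1780 and 1225 against 1282, 1467 and 1317 (−0.09, SE 0.14, adjusted p = 0.828), and its difference was 0.069 without vector replicate 2. PDHX, the E3-binding protein (chromosome 11, 34915829 to 35020591), had 1086, 1127 and 1059 against 966, 1138 and 953 (−0.10, SE 0.11, adjusted p = 0.727). These 3 subunits overlapped between the groups. DLAT, the E2 acetyltransferase core (chromosome 11, 112024814 to 112064390), had 1780, 1772 and 1683 in vector and 1878, 1917 and 2072 in the nPD-L1-labelled libraries. Its libraries did not overlap and its mean was 112% of vector, but the difference did not pass (0.16, SE 0.093, 95% interval −0.04 to 0.37, adjusted p = 0.501).

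Among the 9 genes other than PDK4, 8 had a log2 fold change below 0 (53.3% of all 15076 genes tested did), with a median of −0.20 against −0.019 over all genes tested. The groups did not overlap for 3 of the 9, PDP1, PDP2 and DLAT (20.6% of all tested genes), and 2 of these, PDP1 and PDP2, were lower (8.54% of all). The same 2 phosphatase genes had an unadjusted p under 0.05 (14.2% of all). At an adjusted p under 0.05, 0 of the 9 were called by limma, where 4.96% of all tested genes were called (4.04% higher and 0.922% lower). Both phosphatase genes passed with DESeq2 and neither did with edgeR. Vector replicate 2 held the highest value of 6 of the 10 genes (PDK3, PDK4, PDP1, PDP2, PDHA1 and PDHB), and nPD-L1 replicate 1 the lowest value of PDK1, PDK3, PDP1 and PDP2. Vector replicate 2 also stood apart from its group. It was more than 2-fold apart from vector replicates 1 and 3 in 883 and 1281 tested genes. Vector replicates 1 and 3 were so in 602 genes, pairs of nPD-L1-labelled libraries in 549 to 646, and pairs across the groups in 1010 to 1538.

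**Figure D2:**
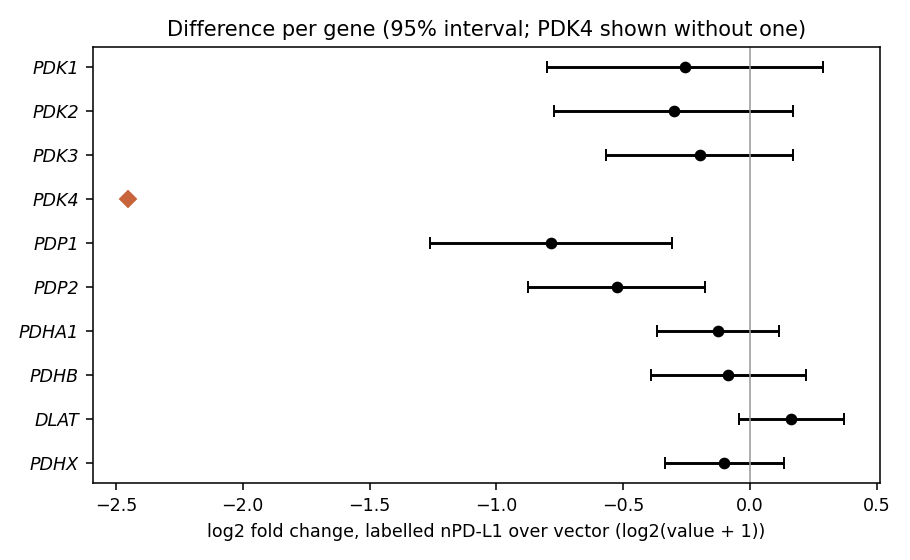
Log2 fold change of each gene, nPD-L1-labelled libraries over vector, with 95% intervals from limma for the 9 genes that were not picked for their change. PDK4 (diamond, −2.45, drawn without an interval) lies far from the rest, the intervals of PDP1 and PDP2 lie below 0, and those of the other 7 genes include 0.

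To compare levels between genes, scaled reads were divided by the gene length in the table, the summed length of a gene's exons. The order of levels in vector cells was PDK4 at 1736 scaled reads per kilobase, PDHA1 at 735, DLAT at 361, PDHB at 308, PDHX at 290.1, PDP1 at 84.0, PDK3 at 47.7, PDP2 at 40.9, PDK2 at 27.5 and PDK1 at 9.48. Neighbours in this order whose libraries overlapped were DLAT and PDHB, PDHB and PDHX, and PDK3 and PDP2. In the nPD-L1-labelled libraries, PDHA1 came first at 671 and DLAT was second at 405, and PDK4 was in the range of the complex subunits, at 318 against 287 for PDHB and 271 for PDHX, with overlapping libraries of PDK4 and PDHB and of PDHB and PDHX. PDP1 (49.2), PDK3 (41.1), PDP2 (28.2), PDK2 (22.3) and PDK1 (8.17) followed, of which PDP1 and PDK3, and PDP2 and PDK2, overlapped. Dividing by coding length in place of exon length kept PDK4 at rank 1 in vector and rank 3 in the other group, but placed PDHB before DLAT in both groups, PDP2 above PDK3 with overlap in vector, and PDK3 above PDP1 with overlap in the nPD-L1-labelled libraries.

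The summed transcripts of the 4 kinases were 1821 ± 27.1 scaled reads per kilobase in vector and 389 ± 15.4 in the nPD-L1-labelled libraries (SD, n = 3), and PDK4 made up 99.1% of that difference of 1431. PDK4 was 95.4% ± 0.584 of the kinase sum in vector and 81.6% ± 2.85 in the other group. PDK3 was 2.62% and 10.6% of the sum, PDK2 1.51% and 5.75%, and PDK1 0.521% and 2.11%. The shares of the other 3 kinases were therefore higher while none of their own levels passed the test. Without PDK4, the kinase sum was 84.7 ± 11.6 and 71.6 ± 8.66, and the libraries overlapped. With coding length, the PDK4 share was 93.9% and 76.7%. The small PDK1 share depends on its exon length of 14883 bases, since its coding length is 1368. Per kilobase of coding length, PDK1 (103 in vector and 88.9 in the other group) stood close to PDK2 (123 and 99.9). The libraries of PDK1 and PDK2 then overlapped within each group.

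**Figure D3:**
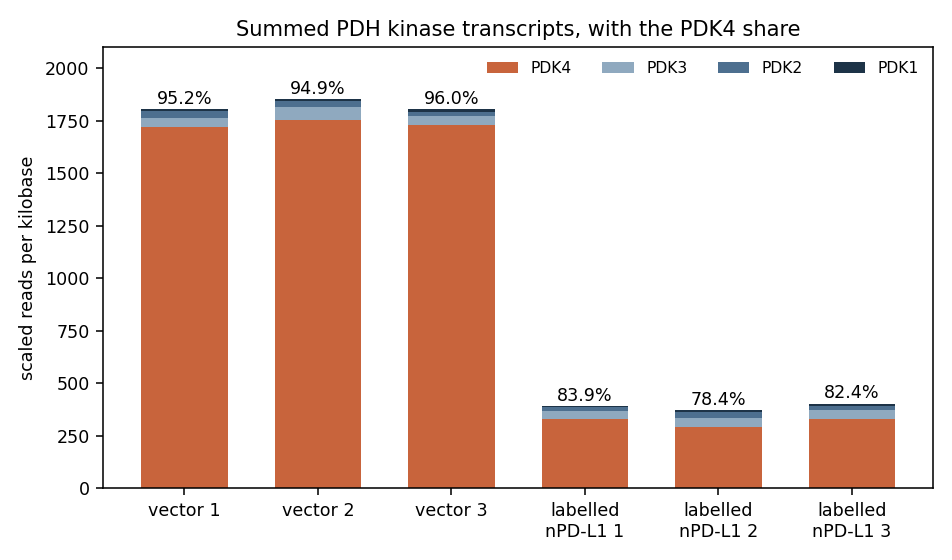
Scaled reads per kilobase of PDK1 to PDK4, stacked for each of the 6 libraries, with the PDK4 share printed above each bar. The vector bars sum to 1804 to 1852 and the bars labelled nPD-L1 to 373 to 403, and the PDK4 share is 94.9% to 96.0% in vector and 78.4% to 83.9% in the other group.

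The 2 phosphatase transcripts summed to 132, 145 and 97.9 scaled reads per kilobase in vector and to 60.2, 86.9 and 85.0 in the nPD-L1-labelled libraries, with no overlap. The ratio of the kinase sum to the phosphatase sum was 13.7, 12.8 and 18.4 in vector and 6.53, 4.29 and 4.74 in the other group. Leaving PDK4 out turned the order of the groups around, from 0.684 ± 0.048 in vector to 0.937 ± 0.109 in the nPD-L1-labelled libraries, with the phosphatases lower and the sum of the other 3 kinases overlapping. PDK4 stood at 2.38 ± 0.247 times the level of its substrate subunit PDHA1 in vector and at 0.475 ± 0.053 times in the other group, and the phosphatase sum at 16.96% ± 2.26 and 11.6% ± 2.38 of PDHA1. The mean of the 4 subunits was 424 ± 41.2 and 409 ± 16.0, with overlap. Within the complex, PDHA1 to PDHB was 2.41 and 2.34 with overlap, whereas DLAT to PDHX was 1.22 to 1.28 in vector and 1.31 to 1.69 in the other group, without overlap. These sums and ratios are descriptions and were given no test.

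Several of these genes overlap a gene on the opposite strand, and the strand setting of the counting is not given in the sources used here. APIP, at 619 and 614 scaled reads in the 2 groups, overlaps PDHX, and MAP3K15, at 90.3 and 94.98, overlaps PDHA1. PIH1D2 (18.3 and 16.4) overlaps DLAT, SAMD14 (3.07 and 3.40) overlaps PDK2, and AC078883.1 (3.65 and 3.67) overlaps PDK1. Reads from PDHX and APIP cannot be told apart where the genes overlap without strand, and APIP is the most abundant of these overlapping genes, so the PDHX values are uncertain.

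The genes around PDK4 on chromosome 7 were not called in limma on all 6 libraries. Within 500 kb, 10 genes were in the table, 4 were tested and 0 of 4 were called by limma, edgeR or DESeq2. In limma, 2 of the 4 had an unadjusted p under 0.05 (14.2% of all tested genes). These 2, ASB4 and PON3, were lower in every nPD-L1-labelled library than in any vector library (8.54% of all tested genes). ASB4, the nearest of the 4, had 1246 ± 126 and 969 ± 72.0 scaled reads (log2 fold change −0.36, adjusted p = 0.122). It passed in 2 of 18 alternatives, without vector replicate 2 (−0.44, adjusted p = 0.0094) and with the replicate number as a block (adjusted p = 0.0290). Its adjusted p values reached 0.867 over the alternatives. The paraoxonase genes PON3 (−0.36, adjusted p = 0.291) and PON2 (−0.10, adjusted p = 0.720) and the gene PPP1R9A (0.17, adjusted p = 0.632) did not pass either. The antisense gene AC002451.1, which starts 191 bases from PDK4, was not tested, at means of 7.36 and 4.71 scaled reads.

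Genes of the metabolic steps on either side of the PDH complex gave no call in limma on all 6 libraries. In 6 such lists, 0 of 50 tested genes were called by limma (4.96% of all tested genes), 4 had an unadjusted p under 0.05 (14.2% of all) and 32 had a log2 fold change below 0 (53.3% of all), with a median of −0.064. edgeR and DESeq2 each called 1 of them, ACLY. Of the other parts of the complex, DLD, the shared E3 subunit, had 2483 ± 248 and 2335 ± 68.8 scaled reads (−0.08, adjusted p = 0.760), and PDPR, the regulatory subunit of the phosphatase, had 612 ± 193 and 587 ± 62.1 (−0.01, adjusted p = 0.991). The lipoate list, which supplies the cofactor on DLAT, had 7 of 7 genes below 0 (53.3% of all tested genes lay below), with a median of −0.19. The smallest p values belonged to LIAS, the lipoate synthase, at 289 ± 25.1 and 227 ± 18.9 (−0.35, adjusted p = 0.270) and FDX1, a ferredoxin, at 882 ± 94.9 and 744 ± 30.04 (−0.24, adjusted p = 0.367).

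Among 13 genes of pyruvate supply and other uses, the lactate transporter SLC16A1 had 1812 ± 78.0 and 2167 ± 27.9 scaled reads (0.26, adjusted p = 0.184), and LDHB, the lactate dehydrogenase B subunit, had 1904 ± 594 and 1450 ± 81.7 (−0.35, adjusted p = 0.428). The 15 genes of the citric acid cycle had a median of −0.088, and the smallest p values belonged to SUCLG1 (−0.16, adjusted p = 0.602) and SUCLA2 (−0.17, adjusted p = 0.613), subunits of succinyl-CoA ligase. The 7 genes of the sister dehydrogenase complexes, which oxidize branched-chain keto acids and 2-oxoglutarate, had a median of 0.12, with BCKDHB (0.23, adjusted p = 0.585) and PPM1K, the phosphatase of the branched-chain complex (0.37, adjusted p = 0.610), having the smallest p values. Of the 6 genes of acetyl-CoA export and activation, ACLY, which cleaves citrate to acetyl-CoA in the cytosol, had 8354, 8706 and 8582 scaled reads in vector and 10473, 11958 and 11226 in the nPD-L1-labelled libraries. The groups did not overlap, and the difference lay just short of the threshold in limma (0.39, SE 0.099, adjusted p = 0.0516). ACLY passed in 7 of 18 alternatives, among them the one without vector replicate 2 (adjusted p = 0.0092), with adjusted p values of up to 0.827. ACACA, the acetyl-CoA carboxylase of fatty acid synthesis, had 3254 ± 263 and 4506 ± 982 (0.45, adjusted p = 0.168).

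The regulators known to act on PDK4 that passed the test were all higher in the nPD-L1-labelled libraries, where PDK4 was lower. Of 17 transcription factors and coactivators listed, PPARGC1A and ESRRG were not in the table. Of the 15 tested, 6 rose and 0 fell at an adjusted p under 0.05 in limma (4.04% and 0.922% of all tested genes). The list was chosen with earlier results of these data known, so these shares do not test for enrichment. The median was 0.28, with 12 above 0 and 3 below (53.3% of all tested genes lay below). PPARG, named after its values were seen, was lower in every nPD-L1-labelled library than in any vector library (−0.23, adjusted p = 0.280). One of the 6, HNF4A, reached 10 scaled reads in only 2 vector libraries and so met the filter through the group in which it was high, which leaves 5 that rose. FOXO1, a forkhead factor that activates PDK4 in fasting, had 129, 187 and 143 scaled reads in vector and 451, 488 and 502 in the nPD-L1-labelled libraries (log2 fold change 1.66, SE 0.16, adjusted p = 0.00012). HNF4A, a hepatocyte nuclear receptor that also stands in the hepatocyte marker list, had 19.2, 11.3 and 6.24 against 51.3, 51.6 and 33.8 (1.91, SE 0.42, adjusted p = 0.0232). THRA, a thyroid hormone receptor, had 338, 238 and 264 against 641, 540 and 495 (1.001, SE 0.16, adjusted p = 0.0036). PPARGC1B, a coactivator of nuclear receptors, had 166, 146 and 274 against 348, 359 and 364 (0.92, SE 0.21, adjusted p = 0.0310). These 4 were named as the called genes with the largest changes. In all 4, every nPD-L1-labelled library was higher than every vector library. The groups did not overlap in 20.6% of all tested genes, in either direction. That share is no measure for these 4, since their choice as called genes made a lack of overlap likely. HNF4A also met the filter through its high group, so its adjusted p is a description. The other 2 that rose, which the naming rule did not choose and which are named after their values were seen, were RXRA (0.57, adjusted p = 0.0094) and CEBPB (0.53, adjusted p = 0.0328). The calls of HNF4A and PPARGC1B were lost when any 1 of the nPD-L1-labelled libraries was left out, that of PPARGC1B also without vector replicate 1, at adjusted p values of up to 0.137 for HNF4A over its alternatives and 0.365 for PPARGC1B. The call of RXRA was lost without vector replicate 1 or nPD-L1 replicate 1, and that of CEBPB without vector replicate 1 or 3 or nPD-L1 replicate 1 or 2. Both were also lost in the fits on 4 libraries described below. Over all alternatives, the adjusted p reached 0.187 for RXRA and 0.429 for CEBPB.

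In 4 lists of genes known to respond to such regulators or HIF, 8 of 40 tested genes were called (4.96% of all tested). Of the 40, 5 were called higher and 3 lower (4.04% and 0.922% of all tested genes). These lists were chosen with earlier results of these data known, so the shares do not test for enrichment. Of 11 tested PPAR-responsive fatty acid genes, 1 rose and 0 fell, and the list's median was 0.020. The gene that rose was ANGPTL4, an inhibitor of lipoprotein lipase that is often induced together with PDK4 by PPAR agonists. It had 359, 377 and 424 scaled reads in vector and 4322, 2966 and 3049 in the nPD-L1-labelled libraries, a log2 fold change of 3.13 (SE 0.15, adjusted p = 7.3e-07), opposite in sign to that of PDK4. Of 9 FOXO-responsive genes, 0 rose and 2 fell, with a median of 0.11. IGFBP1, an insulin-like growth factor binding protein, had 511, 625 and 700.4 against 427, 349 and 253 (−0.85, SE 0.19, adjusted p = 0.0273), and IRS2, an insulin receptor substrate, had 4218, 4259 and 3316 against 2046, 2453 and 2229 (−0.80, SE 0.12, adjusted p = 0.0028). Both were thus lower while FOXO1 was higher, but of the 9 genes 5 lay above 0, without a call, and 4 below. Among all tested genes 53.3% lay below. The call of IGFBP1 was lost without vector replicate 3 or nPD-L1 replicate 2 or 3, with adjusted p values of up to 0.115 over its alternatives.

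Of 9 glucocorticoid-responsive genes, 0 rose and 1 fell (4.04% and 0.922% of all tested genes), with a median of 0.087. TSC22D3, also known as GILZ, had 697, 637 and 725 scaled reads in vector and 532, 506 and 455 in the nPD-L1-labelled libraries (−0.46, SE 0.11, adjusted p = 0.0437), and its call was lost with no filter on low values (adjusted p = 0.0545) and when vector replicate 1 or 3 or any nPD-L1-labelled library was left out (up to 0.535 over its alternatives). Of 11 HIF-responsive genes, 4 rose and 0 fell (4.04% and 0.922% of all tested genes), with a median of −0.019. PDK1, the HIF-responsive kinase, did not pass. VEGFA, the vascular growth factor, had 1044, 787 and 1134 against 2587, 2258 and 2340 (1.29, SE 0.14, adjusted p = 0.00023). EGLN3, a prolyl hydroxylase, differed by 0.89 (adjusted p = 0.0082; up to 0.202 over its alternatives, lost without vector replicate 1), NDRG1 by 0.87 (adjusted p = 0.00085) and KDM3A, a histone demethylase, by 0.60 (adjusted p = 0.0048). The glycolytic HIF-responsive genes in the list were among the 7 that did not pass. Over all 11 lists, 14 of 105 genes were called (13.3%, against 4.96% of all tested genes), 11 of them higher. All 14 lay in the 5 lists of regulators and responses. They include HNF4A, which met the filter through the group in which it was high. All lists were chosen with earlier results of these data known, so these shares do not test for enrichment.

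**Figure D4:**
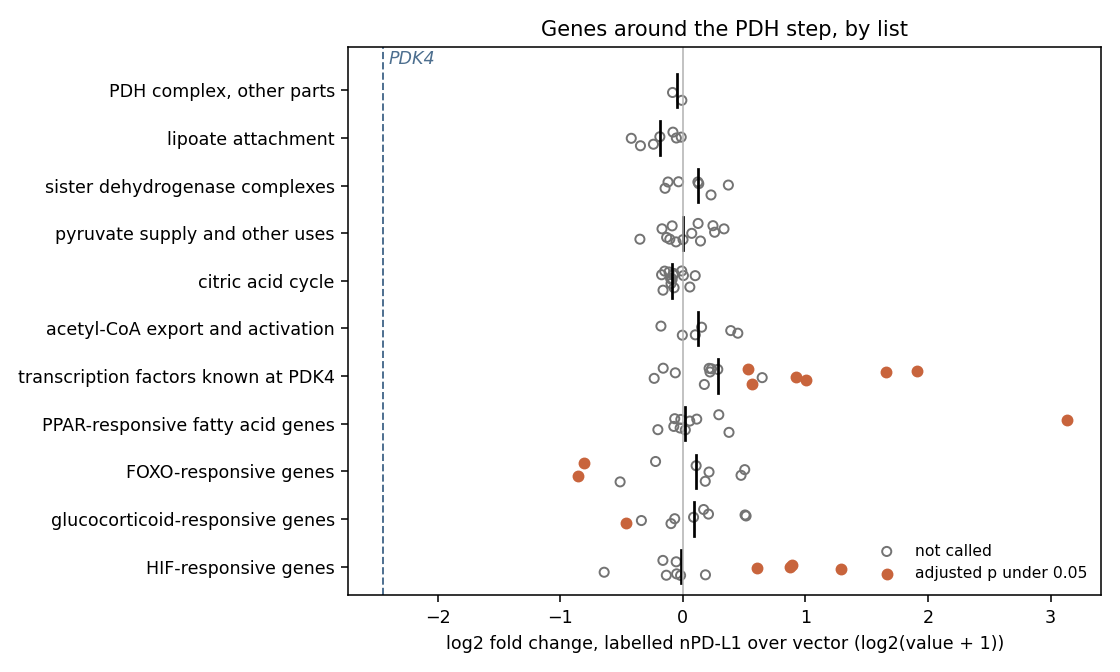
Log2 fold change of each tested gene in the 11 lists, nPD-L1-labelled libraries over vector, with filled points for an adjusted p under 0.05 in limma, a vertical bar at each list's median and a dashed line at the PDK4 value. The 6 metabolic lists hold no filled point and lie close to 0, and no listed gene comes near the −2.45 of PDK4.

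The genes whose pattern over the 6 libraries was closest to that of PDK4 were found by the root mean square difference of centred log2 values among the 10724 other genes whose mean reached 100, of which 44 had a log2 fold change of −1 or below. They were SOX21 (a difference of 0.211), PTX3 (0.219), CXCL3 (0.252), LURAP1L (0.286) and CITED2 (0.338). SOX21, a SOX-family transcription factor, had 371, 396 and 451 scaled reads in vector and 61.3, 83.9 and 66.6 in the nPD-L1-labelled libraries. PTX3, a secreted pentraxin of innate immunity, had 754, 880 and 802 against 210.1, 158 and 217, and like PDK4 was lowest in nPD-L1 replicate 2. CXCL3, a neutrophil chemokine, had 1120, 1272 and 826 against 236, 244 and 243. LURAP1L had 832, 871 and 782 against 207, 235 and 204, and CITED2, a transcriptional coregulator, had 610, 821 and 414 against 118, 97.1 and 80.1. The groups did not overlap for any of the 5 genes, which the way they were chosen fixed.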

How the data were processed

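Total RNA of the 6 libraries was prepared with the NEBNext Ultra RNA kit and sequenced and analyzed by a company. The authors' processing notes name CASAVA, HISAT2 (version 2.0.5) and the build hg38, and the counting program is not given in the sources used here. The values the authors deposited are a signal, read counts per gene after division by a scaling factor of the library. In all 6 libraries 100% of values were whole multiples of 1 step (tolerance 0.001), so whole reads were recovered. In vector replicate 1 and nPD-L1 replicate 2 that step lies so close to 1 that the recovery is less certain. The deposited table also holds the authors' group means, a log2 fold change and a p-value, raw and adjusted, which were not used.

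Libraries were grouped by their titles. Log2(value + 1) was fitted with limma (version 3.58.1, R 4.3.3; trend and robust moderation, two-sided) in the 15076 of 27009 genes that reached 10 scaled reads in 3 or more libraries, and Benjamini-Hochberg adjusted p values under 0.05 over all genes were called. Every adjusted p comes from this fit unless another tool is named, and the scale understates changes of low genes. Tested on simulated data for this comparison (15076 genes), limma recovered 73% of 100 genes changed by a log2 of 1 and 90% of 100 changed by 2, with 4.12% of 170 calls on unchanged genes. DESeq2 put 8.74% of its 183 calls on unchanged genes and edgeR 4.62% of 173. As alternatives, recovered reads were analyzed with DESeq2 (version 1.42.0) and edgeR (version 4.0.16).

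All 10 genes were named, and from each list up to 4 called genes with the largest change or, where none was called, up to 2 with the smallest p, and the 5 genes closest to PDK4 in pattern. Neighbouring and overlapping genes were chosen by position. The 10 genes and all lists were chosen with earlier results of these data known. Gene coordinates are those of the table and equal GENCODE 29 (GRCh38) for all 10 genes. Promoter windows are from RefSeq.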

Additional observations from a re-analysis of the deposited data

How the results depend on the processing

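Over 18 alternatives, the log2 fold change of PDK4 stayed between −2.48 and −2.39. Reversals were those of PDK1 without nPD-L1 replicate 1 (0.024, range −0.45 to 0.024 with a library left out) and PDHB without vector replicate 2 (0.069, range −0.20 to 0.069). PDP1 (adjusted p 0.0099 to 0.278 over the alternatives) passed with no filter on low values (0.0177), with DESeq2 (0.0099) and without vector replicate 3, and PDP2 (0.0229 to 0.645) with DESeq2 (0.0435) and without vector replicate 3. Of the 9 genes other than PDK4, 0 were called in the main fit, and none except PDP1 and PDP2 in any alternative. Over all genes, 748 were called, 374 with a log2 fold change of at least 1, and 408 to 1033 with a library left out. The number was 481, 1033 and 816 without vector replicates 1, 2 and 3. It was 420, 460 and 408 without nPD-L1 replicates 1, 2 and 3. Of the list genes 14 were called, HNF4A included, 5 of them with a log2 fold change of at least 1. With a library left out, 9 to 17 were called (9 without vector replicate 1 and 9 without nPD-L1 replicate 2). On 4 libraries (vector 2 and 3, nPD-L1 1 and 3), chosen after seeing the data, edgeR called 325 genes and 6 list genes, and limma 307 and 4. In both, 0 of the 9 genes other than PDK4 passed. ANGPTL4, FOXO1, VEGFA and THRA passed in 18 of 18 alternatives. The PDK4 share was 93.7% (vector) and 76.2% without length, 93.9% and 76.7% with coding length (added after seeing the data), and 95.03% to 95.6% and 80.4% to 83.1% with a library left out.

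The replicate numbers do not settle which libraries belong together. Deviations of same-numbered libraries correlated at −0.013, 0.229 and 0.131 for replicates 1, 2 and 3. Those of replicates 2 and 3 were the highest of all pairs. Vector replicate 2 with nPD-L1 replicate 3 gave −0.163, and vector replicate 3 with nPD-L1 replicate 2 gave −0.219. Vector replicate 1 correlated best with nPD-L1 replicate 3 (0.074). With the replicate number as a block, 1185 genes passed in limma, among them PDP1 (adjusted p = 0.0129), PDP2 (0.0386) and 19 list genes. PDK4 was picked for its change, so its row is no test here either.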
